A study of Mus musculus with 12 samples.

Results

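The replication-dependent histone genes of the mouse were followed in R1 embryonic stem cells given 2i with or without an inhibitor of MRE11. They were taken as the gene IDs whose GRCm38 symbol starts with Hist1h, Hist2h, Hist3h or Hist4h, and were kept where their counts summed over the 12 libraries reached 60. This left 48 members of 70 such genes, among 56691 mouse gene IDs in the count tables. The members were thus chosen by their summed counts, so their being detected is not a result. The sum includes every group compared below, so a member high in 1 group may have passed because of it. Just inside the minimum were Hist2h3b with 60 counts, Hist2h2ac with 61, Hist1h2bf with 62 and Hist1h2bl with 66, and just outside were Hist1h3f with 57, Hist2h2be with 34, Hist1h2ah with 32 and Hist1h2bn with 31. Members by type were 10 genes for H2A, 12 for H2B, 9 for H3, 12 for H4 and 5 for H1. By place they were 42 in cluster 1 on chromosome 13, 3 in cluster 2 on chromosome 3, 2 in cluster 3 on chromosome 11 and 1 in cluster 4 on chromosome 6.

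R1 is a male embryonic stem cell line of strain 129. The cells were sampled after 6 days in 2i alone, after 6 days in 2i with 25 or with 50 µM of the MRE11 inhibitor, and before treatment at day 0, the state that the labels call primed, in medium with serum and LIF on gelatin. 2i is a pair of inhibitors, of MEK and of GSK3, that brings such cells towards the naive state, and MRE11 is a nuclease that trims DNA ends, at breaks and where replication stalls. No source used here names the inhibitor. By its title, the study is about the part of MRE11 and of DNA replication in the passage from primed to naive cells. Each of the 4 groups had 3 libraries of 3′ mRNA sequencing, and no group kept in serum with LIF to day 6 was analysed here, so that an effect of 2i and of 6 days in culture cannot be told apart. Whether replicates were grown as separate cultures is not stated in the labels. A p-value here therefore speaks of variation from library to library, and that variation may be technical.

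Histone proteins package DNA into nucleosomes. The core of a nucleosome is made of H2A, H2B, H3 and H4, and H1, the linker histone, binds where DNA enters and leaves it. The genes of the replication-dependent kind mostly lack introns, sit in clusters and are expressed mainly in S phase, when newly made DNA has to be packaged. Their mRNAs normally end in a conserved stem-loop in place of a poly(A) tail. SLBP binds the stem-loop, the RNA is cut just past it with the help of the U7 snRNP, and a minority of transcripts is polyadenylated instead, at sites past the stem-loop. The libraries were primed with oligo-dT, so the values below count polyadenylated forms and say nothing of the stem-loop-ended forms, which make up most histone mRNA in dividing cells.

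The stem-loop letters are shown first because they mark the end that the method does not see. They were searched in the annotated transcripts of GENCODE M21 on GRCm38 and found in 35 of the 48 members, in 7 forms. The form of Hist1h2ae was shared by 20 members of H1, H2A, H2B and H3. A form with more G and C in its stem, seen in Hist4h4, was found in 6 members, which were H4 genes only, and a closely related one in Hist1h4i and Hist2h4. Hist1h3c shared its form with 3 other members, while Hist1h3g, Hist1h4a and Hist2h2ac each had a form of their own. Capitals mark the 16 bases of the stem-loop, with 5 bases of transcript on either side, 5′ to 3′.
Hist1h2ae: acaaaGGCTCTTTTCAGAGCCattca
Hist1h2ad: acaaaGGCTCTTTTCAGAGCCatcca
Hist1h2bg: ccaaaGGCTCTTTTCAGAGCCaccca
Hist3h2ba: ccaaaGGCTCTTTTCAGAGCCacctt
Hist1h3d: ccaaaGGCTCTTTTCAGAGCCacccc
Hist1h3c: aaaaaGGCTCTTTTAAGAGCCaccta
Hist1h3g: ttaaaGGCTCTTCTTAGAGCCaccca
Hist1h4i: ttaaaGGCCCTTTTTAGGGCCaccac
Hist1h4a: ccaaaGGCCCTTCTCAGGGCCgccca
Hist4h4: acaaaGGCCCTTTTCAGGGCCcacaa
Hist1h1c: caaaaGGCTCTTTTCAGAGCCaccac
Hist1h1e: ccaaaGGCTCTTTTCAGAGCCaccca
Annotated transcripts of 18 members ran 100 or more bases past the stem-loop, those of 17 members ended sooner, and 13 members, among them Hist1h4b, Hist1h1a and Hist1h1b, had no such letters in their annotated transcript. Among members with the longer annotated ends were Hist1h2ae with 151 bases past the stem-loop, Hist1h4i with 330, Hist1h3d with 752, Hist1h1c with 840 and Hist1h1e with 1153, whereas Hist1h2ad had 42 and Hist1h3c had 74.

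Promoters are shown for a divergent H2A and H2B pair, an H3 gene and an H4 gene that were all called higher with the inhibitor (below), with motif letters in capitals, 5′ to 3′ on the strand named. RefSeq sequences on GRCm38.p6, from 250 bases before to 50 after the start, were found for 45 of the 48 members and not for Hist1h3a, Hist1h2bc and Hist2h4. The letters of 4 motifs were searched on both strands, with any overlap allowed. They were CCAAT, the box bound by NF-Y, TATAAA, the TATA box, ATTTGCAT, the octamer bound by POU factors, and GGTCCG, letters found in the H4 element that HINFP binds.
Hist1h2bg and Hist1h2ae, chr13:23571150-23571449, plus strand: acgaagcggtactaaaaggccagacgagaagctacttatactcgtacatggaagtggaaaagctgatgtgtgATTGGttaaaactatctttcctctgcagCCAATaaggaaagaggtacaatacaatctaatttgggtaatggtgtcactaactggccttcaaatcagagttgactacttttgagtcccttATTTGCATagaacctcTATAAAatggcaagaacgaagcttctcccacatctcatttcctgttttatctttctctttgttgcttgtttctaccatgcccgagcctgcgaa
Hist1h3d, chr13:23575513-23575812, plus strand: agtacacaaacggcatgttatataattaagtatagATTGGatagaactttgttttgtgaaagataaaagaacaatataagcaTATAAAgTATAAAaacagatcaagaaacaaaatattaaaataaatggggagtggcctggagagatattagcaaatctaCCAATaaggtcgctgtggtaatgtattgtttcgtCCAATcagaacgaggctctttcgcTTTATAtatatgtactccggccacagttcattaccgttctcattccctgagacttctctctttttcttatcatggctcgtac
Hist1h4i, chr13:22041313-22041612, minus strand: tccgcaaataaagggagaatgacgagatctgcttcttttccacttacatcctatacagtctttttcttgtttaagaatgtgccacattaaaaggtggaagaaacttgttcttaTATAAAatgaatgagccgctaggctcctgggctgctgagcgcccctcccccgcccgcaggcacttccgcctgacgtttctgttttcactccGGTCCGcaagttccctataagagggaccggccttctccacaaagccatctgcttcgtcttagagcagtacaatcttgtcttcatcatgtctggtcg
Of the 45 promoters, 37 (82.2%) held CCAAT, against 37.41% of 32851 promoters of the same length. TATAAA was in 28 (62.2%, against 13.62%) and ATTTGCAT in 9 (20.0%, against 1.74%). The octamer was seen in 5 promoters of H2A and 4 of H2B genes and in none of H1, H3 or H4 genes. CCAAT was in each promoter of the other types and in 3 of 11 for H4, while GGTCCG was in 10 of 11 for H4, Hist1h4a being the exception, against 8.25% of all promoters. These matches describe the letters in these windows and are not evidence of binding.

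Library totals were 5894561 to 7060126 counts, and 13230 genes were tested. The members together took 0.0139 to 0.0344% of a library, or 17561 counts over the 12 libraries, so that single members rest on few counts. Of these, 41.95% fell on Hist1h1e, Hist1h1c, Hist1h3d, Hist1h2ae and Hist1h3c. Enough counts for a test were found in 42 members, and not in Hist1h2an, Hist2h2ac, Hist1h2bf, Hist1h2bl, Hist1h2bm and Hist2h3b. Members share between 0 and 93.9% of their 50-base stretches with annotated transcripts of other replication-dependent histone genes (median 43.7%). As 19 share 50% or more, reads may have been split between copies and a single member is uncertain. Sharing with genes outside this set is not in these values. Hist3h2a is at 2.0%, although its exon overlaps that of Trim17 on the same strand. The exons of 12 members overlap an antisense gene, and no source used here says how strand was used in the counting. In each group replicate 1 stood apart from the other two libraries, with a chi-square per degree of freedom of 8.818 to 11.707 against 2.483 to 6.642 between replicates 2 and 3. Of 10 markers of stem cells, summing to 4725 to 5384 CPM in the libraries given 2i and 4229 to 4933 CPM in the primed ones, 4 were called higher and 2 lower in 2i than in primed cells (20.0% and 20.4% of all genes were) and 3 higher at 50 µM than in 2i (7.01%). Of 10 fibroblast markers, Dcn and Postn were at or near 0 throughout and 5 were tested. Of these 3 were lower in 2i than in primed cells (20.4% of all genes were). Against 2i, 1 was lower at 25 µM (0.484%) and 2 were lower at 50 µM (8.07%), and none was higher. Median log2 fold changes of the 5 in these comparisons were −0.714, −1.017 and −1.345. The summed level of the 10 was 199 to 219 CPM in 2i, 187 to 198 CPM at 25 µM, 212 to 230 CPM at 50 µM and 156 to 293 CPM in primed cells, and their part in the results below was not tested.

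Levels are CPM, counts scaled to library size with TMM factors, and are not adjusted for length, as each transcript is counted near its 3′ end. Summed over the 43 members that encode core histones, these genes reached 92.3, 87.8 and 88.4 CPM in 2i alone, 151.2, 149.5 and 150.0 CPM with 25 µM, 206.0, 236.0 and 276.8 CPM with 50 µM, and 161.6, 164.2 and 153.6 CPM in primed cells. The 4 groups did not overlap. The level was lowest in 2i, about that of primed cells but below each of them at 25 µM, and above all other libraries at 50 µM. The ratio of group means was 0.56 for 2i over primed cells, 1.679 for 25 µM over 2i, 2.677 for 50 µM over 2i and 1.595 for 50 over 25 µM. No test was run on such sums, which are a description. In a sample of bulk RNA, fewer cells in S phase and less polyadenylated histone RNA per cell cannot be told apart. The sums do not give total histone RNA, as forms without a poly(A) tail are not counted.

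**Figure D1:**
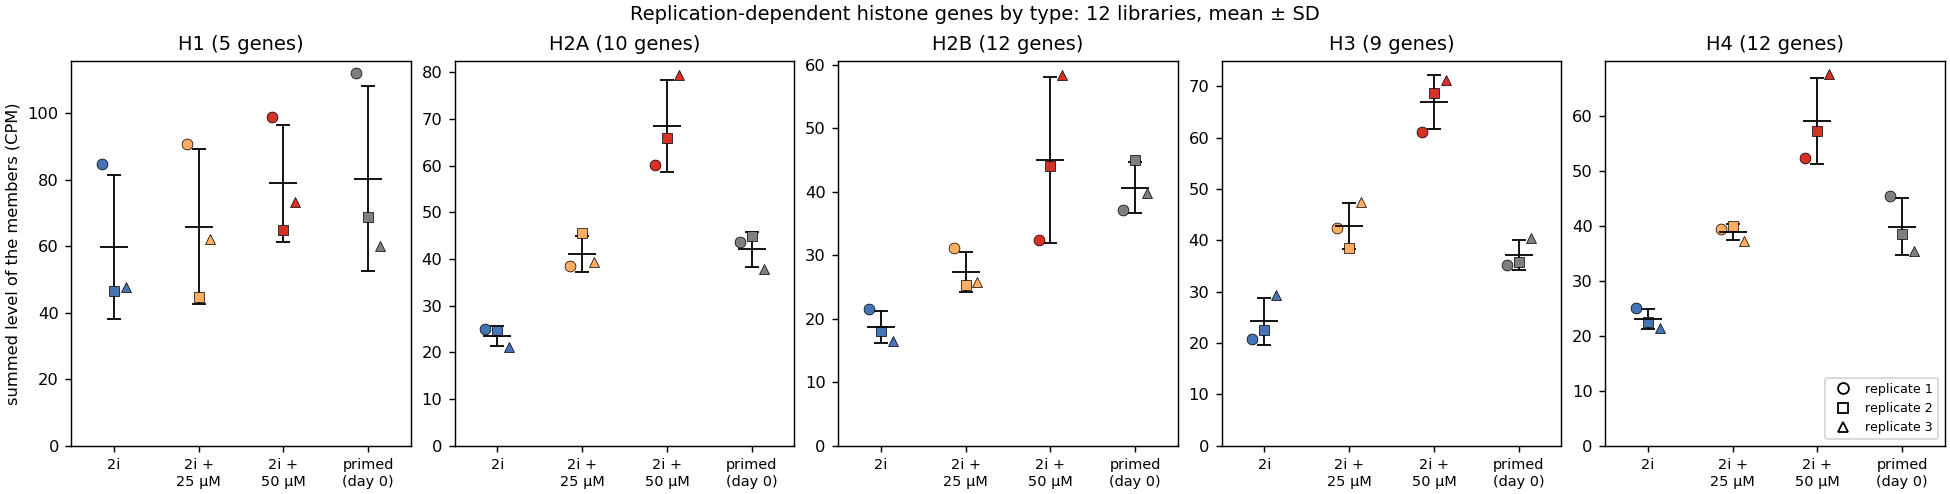
Summed level in CPM of the members of each histone type (vertical axes, each from 0) in the 12 libraries (symbols, by replicate), with mean and SD of 3 libraries per group (horizontal axis). H2A, H2B, H3 and H4 were lowest in the libraries of 2i alone, whereas in H1 replicate 1 stood above the other libraries of its group and the groups overlapped.

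The first comparison asked how 6 days of 2i differed from primed cells. Of the 42 members tested, 20 were lower in 2i (adjusted p below 0.05, edgeR quasi-likelihood test with Benjamini-Hochberg adjustment over all genes), none was higher and 22 were not called. Over all genes 20.4% were called lower and 20.0% higher (40.4% in either direction). The median log2 fold change of the tested members was −0.87, with a range of −2.62 to 0.36, beside a median of −0.0066 over all genes, and 41 of 42 had a negative value. At an unadjusted p under 0.05, 25 were lower and none was higher, and DESeq2 called 14 lower and none higher. For counts at an unadjusted p, by DESeq2 or with libraries left out, here and below, the shares of all genes are not given. The calls covered 7 of 9 tested H2B genes, 5 of 8 for H3, 3 of 8 for H2A, 4 of 12 for H4 and 1 of 5 for H1. Of the 20 calls 9 were kept with any 1 of the 6 libraries left out, those of Hist1h1d, Hist1h2ae, Hist1h2bg, Hist1h2bk, Hist3h2ba, Hist1h3c, Hist1h3e, Hist1h4b and Hist1h4i. The count was 12 without 2i replicate 2 and 13 without 2i replicate 3, and 17 without replicate 1 of every group. Among the called members Hist3h2ba and Hist1h2bh reached the minimum of summed counts only with their counts in primed cells.

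The second comparison set 25 µM of the inhibitor in 2i against 2i alone. Of the 42 members 4 were higher, Hist1h2ae, Hist1h2ad, Hist1h4i and Hist1h4b (edgeR, adjusted p below 0.05), none was lower and 38 were not called. Over all genes 0.454% were called higher and 0.484% lower (0.937% in either direction). The median of the tested members was 0.63 on the log2 scale, beside 0.0042 over all genes, and 39 of 42 were positive. At an unadjusted p under 0.05, 18 were higher and none was lower, and DESeq2 called 5 higher and none lower, again without the shares of all genes. With the replicate number as a block, since replicates of the same number deviate together, 8 members were higher, against 2.48% of all genes, and the added ones were Hist1h1c, Hist1h3d, Hist1h4a and Hist2h4. The count was 2 without 2i replicate 2 and without 25 µM replicate 1 or replicate 2, and stayed at 4 without replicate 1 of every group.

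The third comparison set 50 µM in 2i against 2i alone. Here 22 of the 42 members were higher (edgeR, adjusted p below 0.05), none was lower and 20 were not called. Over all genes 7.01% were called higher and 8.07% lower (15.1% in either direction). The median was 1.23 on the log2 scale, beside 0.0092 over all genes, with a range of −0.17 to 3.86, and 40 of 42 were positive, the exceptions being Hist1h1d and Hist1h1a. At an unadjusted p under 0.05, 32 were higher and none was lower, and DESeq2 called 18 higher and none lower. The shares of all genes given above do not apply to these counts. By type the calls were 5 of 8 for H2A, 5 of 9 for H2B, 4 of 8 for H3, 7 of 12 for H4 and 1 of 5 for H1. Calls were kept with any 1 library left out in 15 of the 22, and not in Hist1h2ak, Hist1h2bc, Hist1h2bh, Hist1h2bk, Hist1h3a, Hist1h4h and Hist4h4. The count was 25 without replicate 1 of every group. Among the called members Hist1h2bh, Hist1h4a and Hist1h4j reached the minimum of summed counts only with their counts at 50 µM.

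Between the doses, 2 members were higher at 50 than at 25 µM, Hist1h2ae and Hist1h4i (edgeR, adjusted p below 0.05), none was lower and 40 were not called. Over all genes 0.181% were called higher and 0.975% lower (1.16% in either direction). The median was 0.63 on the log2 scale, beside 0.0052 over all genes, and 38 of 42 were positive. At an unadjusted p under 0.05, 18 members were higher and 1 was lower, and DESeq2 called 2 higher and none lower, also without the shares of all genes. With the replicate block 5 were called, against 1.27% of all genes, the added ones being Hist1h1c (adjusted p = 0.0232), Hist1h2ag (0.0138) and Hist1h2bg (0.0207, all by edgeR). Without 25 µM replicate 3 or 50 µM replicate 3 none was called, 1 was called without either group's replicate 2, and 4 were called without replicate 1 of every group.

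**Figure D2:**
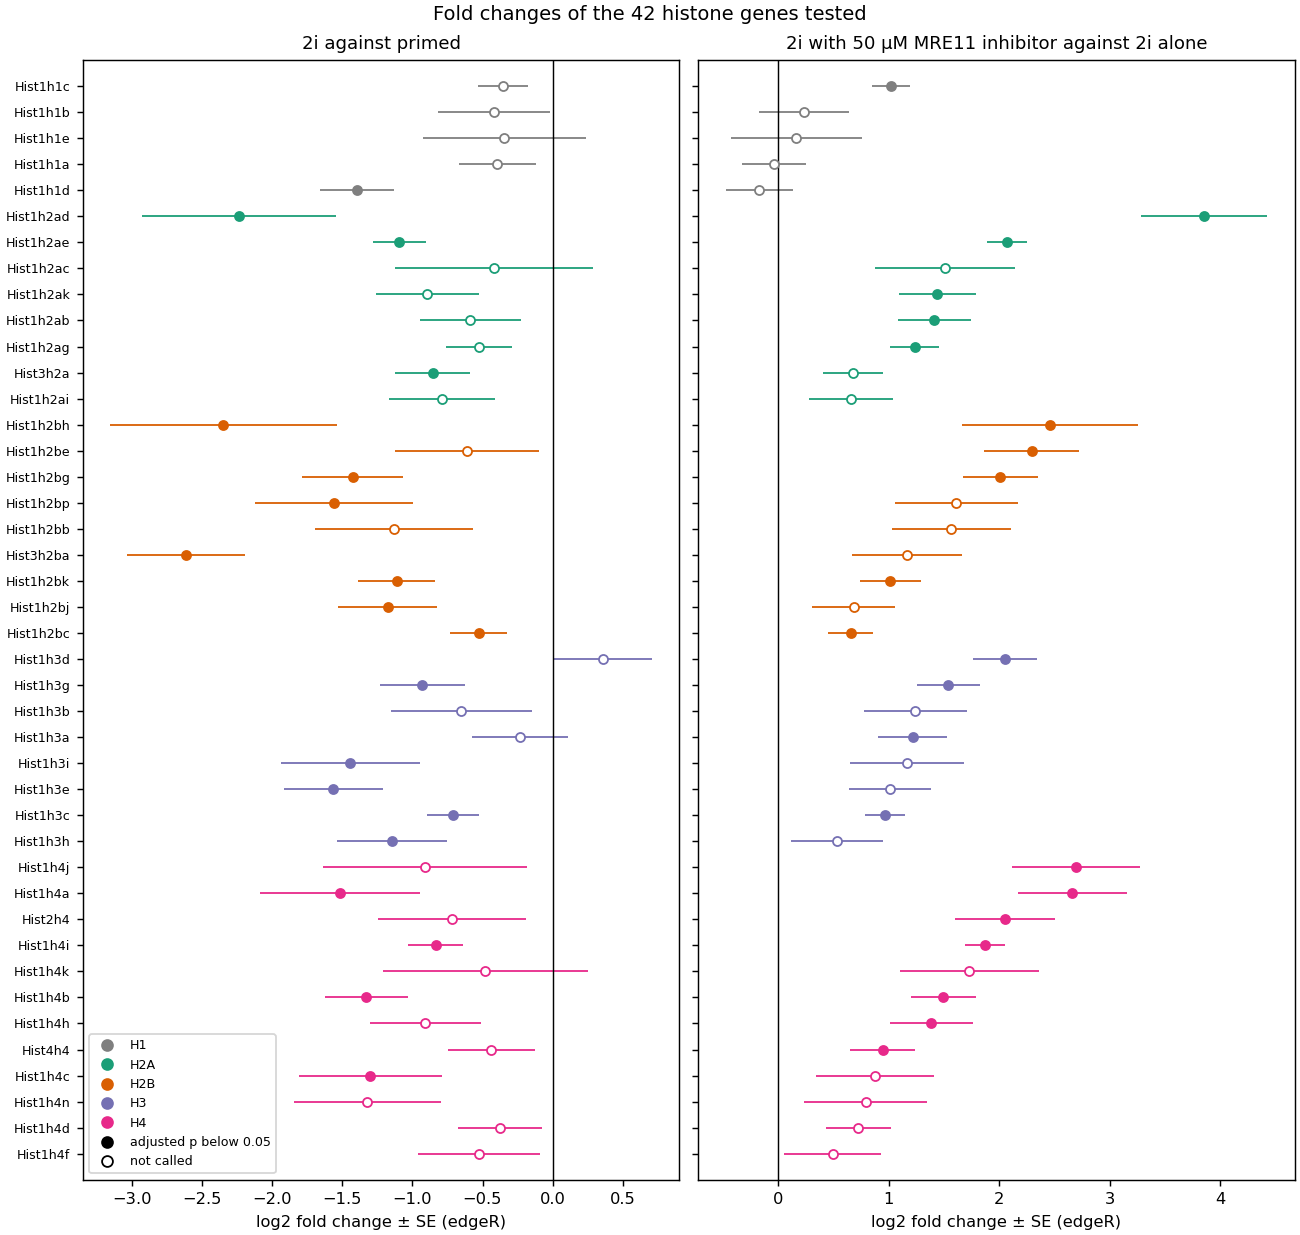
Log2 fold change with its SE (edgeR, horizontal axes) of the 42 members tested, for 2i against primed cells and for 2i with 50 µM against 2i alone. Filled points have an adjusted p below 0.05; 20 lie below 0 on the left and 22 above 0 on the right, and none of the filled points lies on the other side.

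The comparisons with 2i share its 3 libraries, so their values are set side by side and not correlated. Members called lower in 2i and higher at 50 µM numbered 11, which were Hist1h2ad, Hist1h2ae, Hist1h2bc, Hist1h2bg, Hist1h2bh, Hist1h2bk, Hist1h3c, Hist1h3g, Hist1h4a, Hist1h4b and Hist1h4i. A further 9 were called lower in 2i than in primed cells and not called at 50 µM against 2i, among them Hist1h1d, Hist1h3e, Hist3h2a and Hist3h2ba. Another 11, among them Hist1h3d, Hist1h1c, Hist1h2be, Hist1h4j and Hist2h4, were called at 50 µM against 2i and not in 2i against primed, and 11 in neither comparison, although a call in one comparison and not in the other is no test of a difference. Of all 48 members, untested ones included, 40 had their lowest group mean in 2i, 39 had means in the order 2i, 25 µM and 50 µM from low to high, and 31 had a higher mean at 50 µM than in primed cells. The shares of all genes with these call patterns and orders are not given, so the counts are a description. Low values in the shared 2i libraries would by themselves raise several of them.

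**Figure D3:**
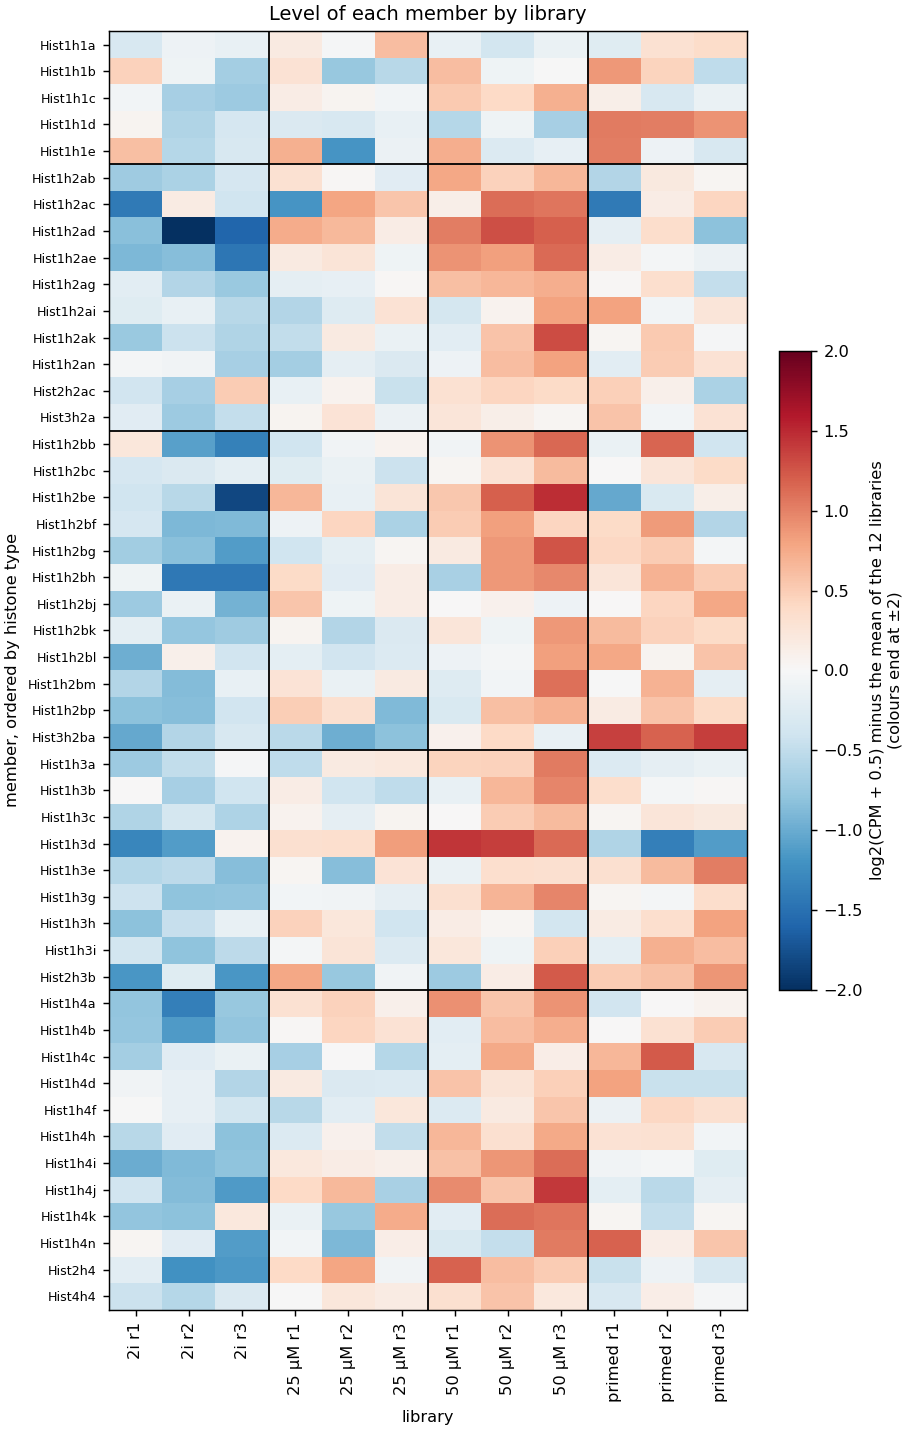
Level of each of the 48 members (rows, by histone type) in each library (columns), as log2(CPM + 0.5) minus the member's mean over the 12 libraries. Most H2A, H2B, H3 and H4 members are blue in the 3 libraries of 2i and red in those of 50 µM, while Hist1h1d and Hist3h2ba are red in the primed libraries.

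The H2A genes encode the core histone that forms a dimer with H2B. Their summed level was 25.0, 24.6 and 21.1 CPM in 2i, 38.4, 45.6 and 39.3 CPM at 25 µM, 60.1, 65.9 and 79.5 CPM at 50 µM and 43.7, 44.9 and 37.9 CPM in primed cells. Hist1h2ae (ENSMUSG00000069272, chr13:23570517-23571220, minus strand) took the largest part, between 22.1 and 29.9% of it in 2i and between 37.1 and 42.8% at 50 µM. Its level was 7.06, 7.36 and 4.68 CPM in 2i, 15.5, 16.4 and 12.8 CPM at 25 µM, 25.7, 24.5 and 30.6 CPM at 50 µM and 15.2, 13.3 and 12.5 CPM in primed cells. The 2i libraries were below all others and the 50 µM libraries above all others, while 25 µM and primed cells overlapped. The log2 fold change was −1.09 ± 0.19 for 2i against primed (edgeR adjusted p = 7.01e-05), 1.22 ± 0.19 for 25 µM against 2i (0.00209), 2.07 ± 0.18 for 50 µM against 2i (1.18e-07) and 0.86 ± 0.16 for 50 against 25 µM (0.00725). The last of these became 0.0669 without 25 µM replicate 3 and 0.0615 without 50 µM replicate 3, and the others were kept in every omission. Gm44394 overlaps the exon of Hist1h2ae on the other strand.

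Hist1h2ad (ENSMUSG00000071478, chr13:23574381-23574952, plus strand), another H2A gene, was close to the limit of detection in 2i, with 4, 0 and 1 counts. Its level was 0.614, 0 and 0.161 CPM in 2i, 2.82, 2.60 and 1.70 CPM at 25 µM, 3.52, 4.33 and 4.05 CPM at 50 µM and 1.24, 2.02 and 0.623 CPM in primed cells. Each 25 µM and each 50 µM library lay above each 2i library, as did each primed library, though primed replicate 3 only just exceeded 2i replicate 1. The fitted log2 fold change of 3.86 ± 0.57 at 50 µM against 2i (edgeR adjusted p = 0.000108) rests on these few counts in 2i. The call at 25 µM (3.11 ± 0.62, edgeR adjusted p = 0.015) was lost in 4 of 6 omissions, with adjusted p of 0.0958 and 0.105 without 2i replicates 2 and 3 and of 0.0577 and 0.064 without 25 µM replicates 1 and 2. The call in 2i against primed (−2.24 ± 0.69, edgeR adjusted p = 0.0127) became 0.082 without primed replicate 2 and 0.0644 without 2i replicate 2. Its transcript shares 67.1% of its 50-base stretches with other replication-dependent histone genes.

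Hist1h2ag had 6.30, 4.71 and 4.19 CPM in 2i, 6.43, 6.51 and 7.53 CPM at 25 µM, 11.5, 11.9 and 12.5 CPM at 50 µM and 7.46, 9.41 and 5.14 CPM in primed cells. The 50 µM libraries were above all others and both 2i and 25 µM overlapped with primed cells (50 µM against 2i 1.23 ± 0.22, edgeR adjusted p = 0.000626). Hist1h2ab, at 1.41 ± 0.33 (0.00609), and Hist1h2ak, at 1.44 ± 0.35 (0.00815), were also higher at 50 µM than in 2i by edgeR, the call of Hist1h2ak becoming 0.0913 without 50 µM replicate 3. Hist1h2ac (1.51 ± 0.63) and Hist1h2ai (0.66 ± 0.38) were not called. With the block Hist1h2ac had an edgeR adjusted p of 0.00199 at 50 µM. Of the untested Hist1h2an and Hist2h2ac no library exceeded 1.78 CPM.

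The H2B members summed to 21.5, 18.1 and 16.5 CPM in 2i, 31.1, 25.4 and 25.8 CPM at 25 µM, 32.4, 44.0 and 58.4 CPM at 50 µM and 37.1, 45.1 and 39.7 CPM in primed cells. The 2i libraries were lowest, the 25 µM libraries lay below each primed library, and the 50 µM libraries spread across the range of primed cells. The median log2 fold change of the 9 tested H2B genes at 25 µM against 2i was 0.88. Hist1h2bg had 1.69, 1.47 and 1.13 CPM in 2i, 2.20, 2.60 and 3.12 CPM at 25 µM, 3.52, 5.97 and 7.93 CPM at 50 µM and 4.20, 4.54 and 2.96 CPM in primed cells. Every library of 2i lay below every other library, and 50 µM and primed cells overlapped. Its log2 fold change was −1.43 ± 0.36 in 2i against primed (edgeR adjusted p = 0.00287) and 2.01 ± 0.34 at 50 µM against 2i (0.000411).

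Hist1h2bc, the H2B member with the most counts, had 6.14, 6.33 and 6.77 CPM in 2i, 6.59, 7.16 and 5.68 CPM at 25 µM, 8.11, 9.70 and 12.5 CPM at 50 µM and 7.93, 9.41 and 10.4 CPM in primed cells. The 2i libraries lay below all primed and all 50 µM libraries and overlapped with 25 µM. It was called lower in 2i than in primed cells (−0.53 ± 0.20, edgeR adjusted p = 0.043, and between 0.0703 and 0.159 in 5 of 6 omissions, primed replicate 1 being the exception). It was called higher at 50 µM than in 2i (0.66 ± 0.20, edgeR adjusted p = 0.0321, and between 0.0539 and 0.203 in 5 of 6 omissions, 50 µM replicate 1 being the exception). By DESeq2 its adjusted p was 0.111 in 2i against primed and 0.0891 at 50 µM against 2i. Without the low-count filter the edgeR adjusted p in 2i against primed was 0.0943. Hist1h2bk was lower in 2i than in primed cells (−1.11 ± 0.27, edgeR adjusted p = 0.00221) and higher at 50 µM than in 2i (1.01 ± 0.27, 0.0158, and 0.149 without 50 µM replicate 3, 0.0777 and 0.0649 without 2i replicates 2 and 3). Hist1h2be, whose exon overlaps that of Hist1h1e on the same strand, was 2.29 ± 0.43 at 50 µM against 2i (edgeR adjusted p = 0.0011).

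Hist3h2ba stood out among the H2B members, but its selection rests on the group where it was high. Of its 111 counts, 24, 19 and 24 were in the primed libraries. Without these it would have been under the minimum of summed counts. It lies in cluster 3 (ENSMUSG00000056895, chr11:58948920-58949533, plus strand) and had 0.307, 0.589 and 0.806 CPM in 2i, 0.627, 0.325 and 0.426 CPM at 25 µM, 1.23, 1.64 and 0.971 CPM at 50 µM and 3.73, 3.19 and 3.74 CPM in primed cells. Primed cells were above all other libraries, and 50 µM was above 2i and 25 µM in each library. The log2 fold change was −2.62 ± 0.42 in 2i against primed (edgeR adjusted p = 3.02e-05) and 1.17 ± 0.50 at 50 µM against 2i (0.12, not called). Its neighbour Hist3h2a, an H2A gene with 3.53, 2.36 and 2.90 CPM in 2i and 6.53, 4.03 and 5.30 CPM in primed cells, was called lower in 2i (−0.85 ± 0.27, edgeR adjusted p = 0.0133, which became 0.08 when primed replicate 1 was left out, 0.0707 for 2i replicate 2 and 0.0544 for replicate 1 of every group) and not called at either dose. Hist3h2a shares exon sequence with Trim17 on the same strand and Gm44313 on the other.

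The H3 genes encode the core histone whose tail carries many of the known modifications. Summed, they gave 20.7, 22.5 and 29.4 CPM in 2i, 42.3, 38.6 and 47.6 CPM at 25 µM, 61.1, 68.8 and 71.2 CPM at 50 µM and 35.3, 35.8 and 40.5 CPM in primed cells. Hist1h3d (ENSMUSG00000099583, chr13:23575763-23577011, plus strand) had 4.61, 5.30 and 12.7 CPM in 2i, 15.2, 15.5 and 22.0 CPM at 25 µM, 33.5, 32.4 and 27.2 CPM at 50 µM and 7.77, 4.37 and 5.30 CPM in primed cells. It was the single tested member with a positive value in 2i against primed (0.36 ± 0.35, edgeR adjusted p = 0.457, not called), with 2i replicate 3 high and the groups overlapping, and the value was −0.23 without that library. The 50 µM libraries lay above all others and the 25 µM libraries above each library of 2i and of primed cells. At 50 µM against 2i the change was 2.05 ± 0.29 (edgeR adjusted p = 0.000339), and at 25 µM against 2i 1.23 ± 0.30 (0.0782, and 0.0482 with the block).

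The share of Hist1h3d in the summed H3 level was 22.2, 23.5 and 43.4% in 2i, 35.9, 40.1 and 46.3% at 25 µM, 54.8, 47.1 and 38.2% at 50 µM and 22.0, 12.2 and 13.1% in primed cells. Primed cells had the lowest shares, and the others overlapped. Without Hist1h3d the H3 sum was 16.1, 17.2 and 16.6 CPM in 2i, 27.1, 23.1 and 25.6 CPM at 25 µM, 27.7, 36.4 and 44.0 CPM at 50 µM and 27.5, 31.4 and 35.2 CPM in primed cells. The 2i libraries remained lowest, and 50 µM and primed cells then overlapped. Hist1h3c had 7.37, 8.84 and 7.26 CPM in 2i, 12.1, 10.1 and 11.9 CPM at 25 µM, 11.5, 16.4 and 18.0 CPM at 50 µM and 11.8, 13.6 and 13.1 CPM in primed cells. Each 2i library lay below every other library, and the other groups overlapped. It was −0.71 ± 0.19 in 2i against primed (edgeR adjusted p = 0.00403) and 0.97 ± 0.18 at 50 µM against 2i (0.00113).

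Among the other H3 members Hist1h3g was 1.54 ± 0.28 at 50 µM against 2i (edgeR adjusted p = 0.000872). In 2i against primed it was −0.93 ± 0.30 (edgeR adjusted p = 0.0167), and the call was lost without primed replicate 3 (0.0788), 2i replicate 2 (0.0655) and 2i replicate 3 (0.0615). DESeq2 gave an adjusted p of 0.0571 for Hist1h3g in 2i against primed. Hist1h3e had 1.69, 1.77 and 1.29 CPM in 2i and 3.57, 4.54 and 6.08 CPM in primed cells (−1.56 ± 0.35, edgeR adjusted p = 0.00107). Its value at 50 µM against 2i was 1.01 ± 0.37 (0.0709, and 0.0393 with the block). Hist1h3a was 1.22 ± 0.31 at 50 µM (edgeR adjusted p = 0.0114, up to 0.0865 in omissions, without 50 µM replicate 3), whereas Hist1h3b, Hist1h3h and Hist1h3i, at 1.24 ± 0.47, 0.53 ± 0.42 and 1.16 ± 0.51, were not called.

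The H4 genes all encode the same protein in mouse, so differences between them lie outside the coding product. Their sum was 25.0, 22.5 and 21.5 CPM in 2i, 39.4, 40.0 and 37.2 CPM at 25 µM, 52.3, 57.3 and 67.7 CPM at 50 µM and 45.5, 38.5 and 35.5 CPM in primed cells. Hist1h4i (ENSMUSG00000060639, chr13:22040636-22041362, minus strand) had 4.61, 5.01 and 5.32 CPM in 2i, 11.3, 10.7 and 10.4 CPM at 25 µM, 14.8, 18.2 and 21.7 CPM at 50 µM and 9.17, 9.41 and 8.10 CPM in primed cells. None of the 4 groups overlapped another. The log2 fold change was −0.83 ± 0.20 for 2i against primed (edgeR adjusted p = 0.00172), 1.11 ± 0.19 for 25 µM against 2i (0.0066), 1.87 ± 0.18 for 50 µM against 2i (7.69e-07) and 0.76 ± 0.16 for 50 against 25 µM (0.022). The call between the doses was lost in 4 of 6 omissions, with adjusted p of 0.11 and 0.12 without 25 µM replicates 2 and 3 and of 0.0569 and 0.153 without 50 µM replicates 2 and 3.

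Hist1h4b had 2.61, 1.91 and 2.58 CPM in 2i, 4.86, 6.67 and 5.96 CPM at 25 µM, 4.05, 7.61 and 8.26 CPM at 50 µM and 4.82, 6.05 and 7.01 CPM in primed cells. The 2i libraries were below all others, which overlapped among themselves. Its call at 25 µM against 2i (1.30 ± 0.30, edgeR adjusted p = 0.0403) was lost in all 6 omissions, with adjusted p between 0.0524 and 0.178, while those in 2i against primed (−1.33 ± 0.30, 0.00103) and at 50 µM against 2i (1.49 ± 0.29, 0.0015) were kept in each. Hist1h4d, with many counts, was called in none of the comparisons. It had 8.29, 7.66 and 5.65 CPM in 2i, 13.2, 10.4 and 12.3 CPM at 50 µM and 15.5, 6.22 and 6.23 CPM in primed cells, where replicate 1 was far above the others. With the block its adjusted p at 50 µM against 2i was 0.00788 (edgeR). Hist1h4a and Hist1h4j, at 2.66 ± 0.49 and 2.70 ± 0.58 at 50 µM against 2i (edgeR adjusted p = 0.000913 and 0.00315), had the largest fitted changes of the H4 genes on 2i levels below 1 CPM. Of the 101 counts of Hist1h4a, 15, 13 and 16 were at 50 µM, and of the 88 of Hist1h4j, 13, 11 and 21. Without these libraries both would have been under the minimum of summed counts, so their selection rests on the group where they were high.

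Hist4h4, the single gene of cluster 4, had 2.00, 1.77 and 2.26 CPM in 2i, 2.82, 3.42 and 3.27 CPM at 25 µM, 3.70, 4.47 and 3.40 CPM at 50 µM and 2.18, 3.19 and 2.80 CPM in primed cells. Its transcript shares none of its 50-base stretches with other replication-dependent histone genes, and the 50 µM libraries were above all 2i and primed libraries. At 50 µM against 2i it was 0.94 ± 0.30 (edgeR adjusted p = 0.0347), a call that was lost in all 6 omissions, with adjusted p between 0.0541 and 0.119, and was 0.123 by DESeq2 and 0.0882 without replicate 1 of every group. Hist2h4 of cluster 2, which shares 1.0% of its stretches with such genes, was 2.05 ± 0.45 at 50 µM against 2i (edgeR adjusted p = 0.00382).

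The H1 genes encode linker histones, and their sum did not separate the groups. It was 84.6, 46.5 and 47.7 CPM in 2i, 90.7, 44.6 and 62.1 CPM at 25 µM, 98.7, 64.9 and 73.2 CPM at 50 µM and 111.9, 68.6 and 60.1 CPM in primed cells. Replicate 1 was the highest library of each group. Hist1h1e, which held between 30.7 and 58.1% of that sum, had 48.1, 21.1 and 25.3 CPM in 2i, 51.9, 13.7 and 29.1 CPM at 25 µM, 52.5, 26.0 and 28.2 CPM at 50 µM and 65.0, 29.4 and 25.2 CPM in primed cells. Its replicate 1 libraries were high in all 4 groups, and it was called in none of the comparisons (0.17 ± 0.59 at 50 µM against 2i). Hist1h1b also had its highest level in replicate 1 of each group, with 11.98, 8.10 and 5.16 CPM in 2i, 10.7, 4.88 and 5.68 CPM at 25 µM, 13.4, 8.05 and 8.58 CPM at 50 µM and 16.01, 11.9 and 5.92 CPM in primed cells, and was not called.

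Hist1h1c (ENSMUSG00000036181, chr13:23738808-23740367, plus strand) was the H1 gene that was higher with the inhibitor. It had 18.0, 11.6 and 11.1 CPM in 2i, 20.9, 19.5 and 17.9 CPM at 25 µM, 27.1, 24.8 and 30.9 CPM at 50 µM and 20.2, 14.8 and 17.0 CPM in primed cells. The 50 µM libraries were above all others, and 2i replicate 1 overlapped with 25 µM and with primed cells. At 50 µM against 2i it was 1.02 ± 0.17 (edgeR adjusted p = 0.000335), and at 25 µM against 2i 0.51 ± 0.17 (0.191, and 0.0364 with the block). Hist1h1d was the H1 gene called lower in 2i, with 3.53, 2.06 and 2.58 CPM in 2i, 2.67, 2.60 and 2.98 CPM at 25 µM, 2.11, 3.13 and 1.94 CPM at 50 µM and 7.46, 7.40 and 6.70 CPM in primed cells. Primed cells were above all others, and the groups given 2i overlapped (−1.39 ± 0.26 in 2i against primed, edgeR adjusted p = 0.000171; −0.17 ± 0.31 at 50 µM against 2i, 0.754).

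**Figure D4:**
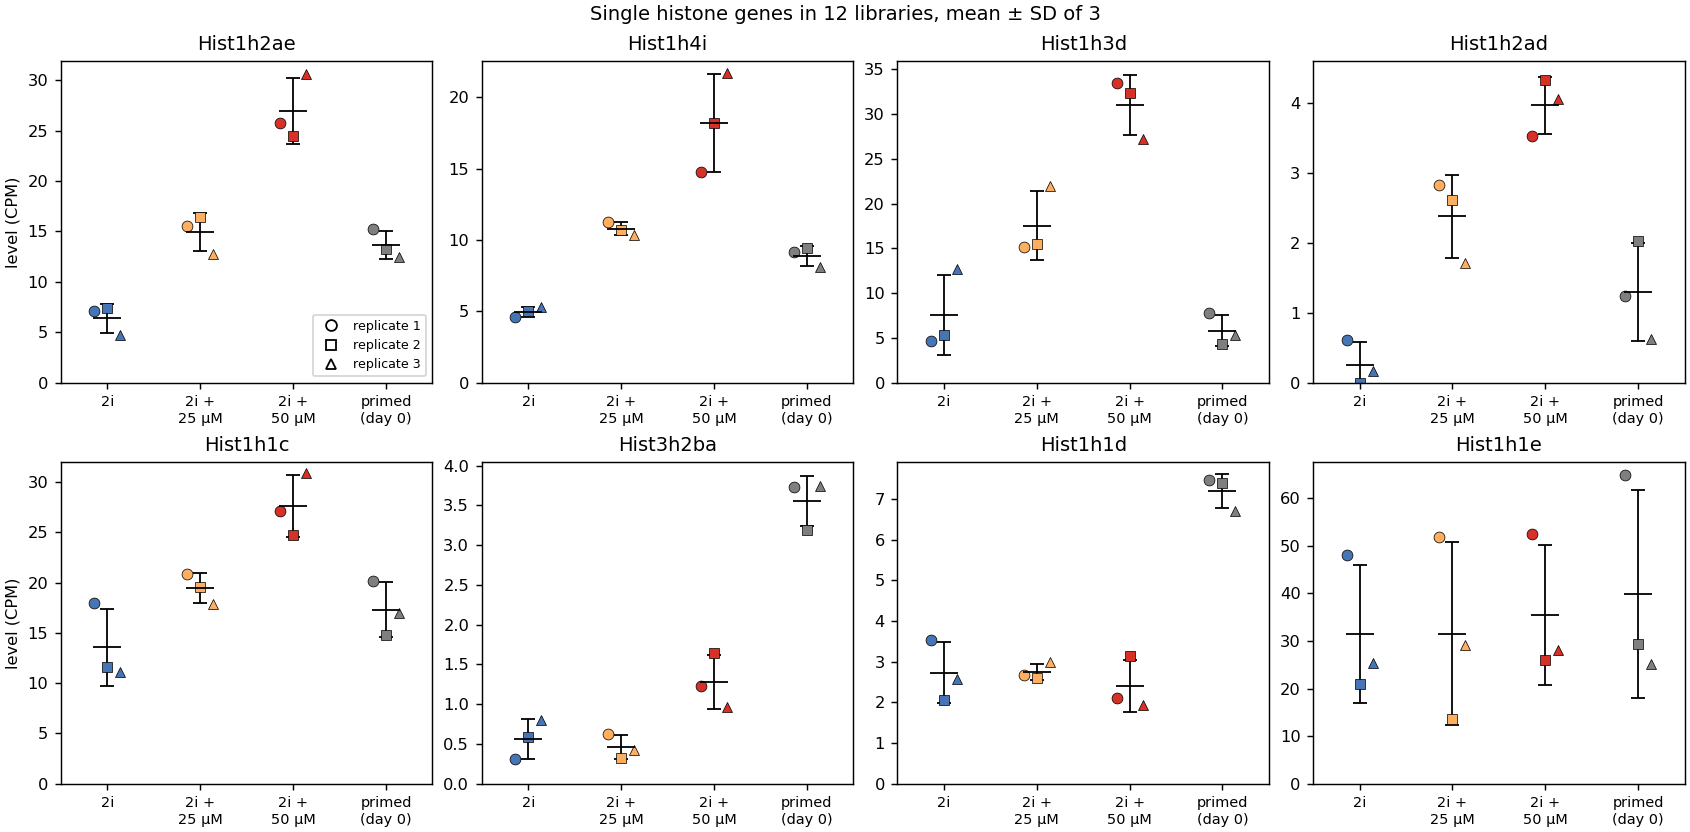
Level in CPM (vertical axes, each from 0) of 8 members in the 12 libraries (symbols, by replicate), with mean and SD of 3 per group. Hist1h2ae, Hist1h4i, Hist1h3d, Hist1h2ad and Hist1h1c are highest at 50 µM, Hist3h2ba and Hist1h1d are highest in primed cells, and Hist1h1e is high in replicate 1 of each group.

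By cluster, the 38 tested members of cluster 1 on chromosome 13 had 18 calls lower in 2i than in primed cells and 20 higher at 50 µM than in 2i, and both members of cluster 3 were lower in 2i and neither was called at 50 µM. The shares of all genes were 20.4% lower in 2i than in primed cells and 7.01% higher at 50 µM than in 2i. Along chromosome 13 the members fall into 3 blocks with more than 100000 bases between them. From Hist1h2bl to Hist1h4n, 3 of 9 tested members were lower in 2i and 2 were higher at 50 µM. From Hist1h2bk to Hist1h2bj, 3 of 4 were lower in 2i and 3 were higher at 50 µM, and from Hist1h4h to Hist1h1a, 12 of 25 were lower and 15 were higher. Median log2 fold changes of the blocks at 50 µM against 2i were 1.16, 1.12 and 1.39. No difference between the blocks was tested.

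**Figure D5:**
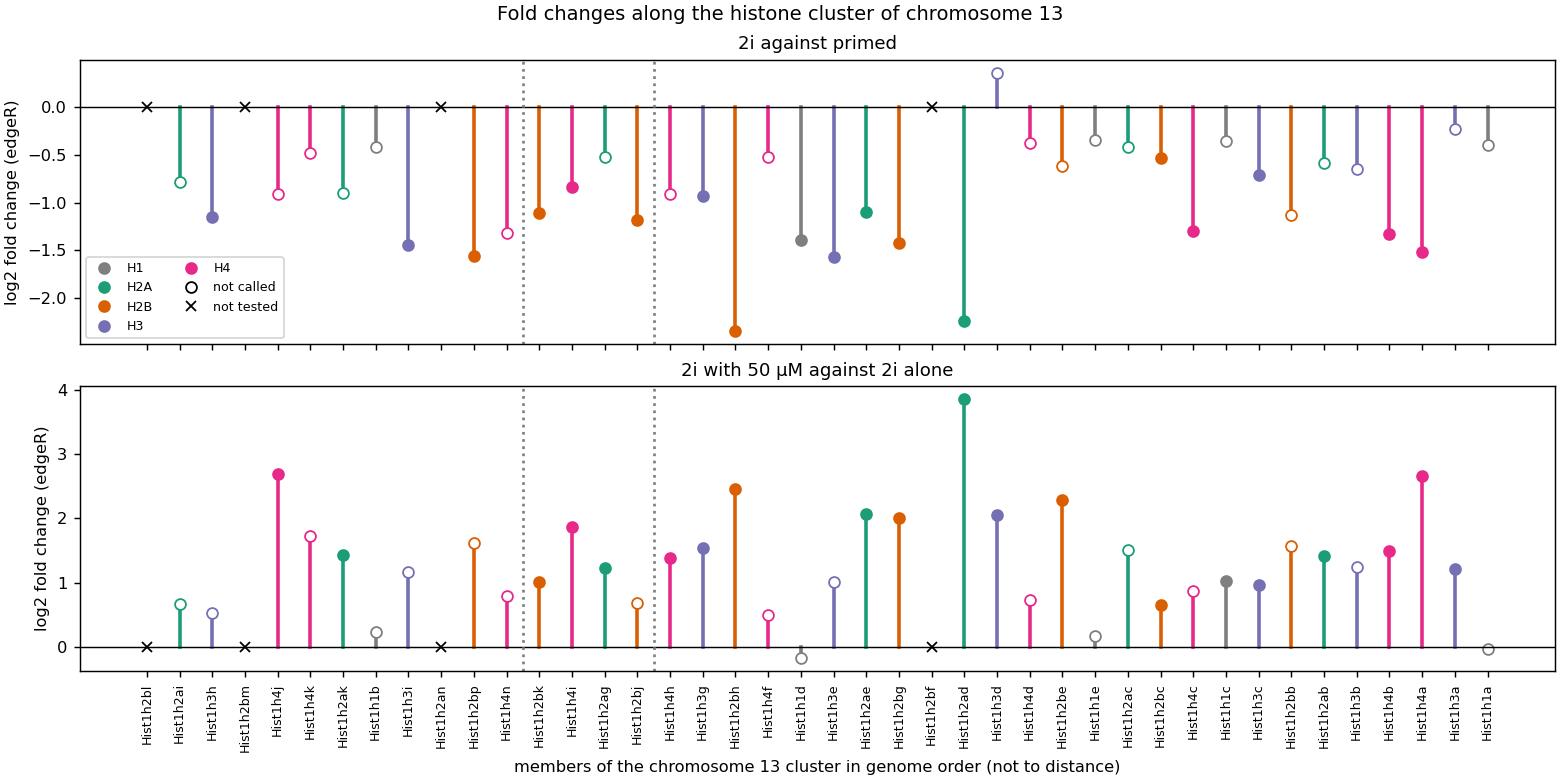
Log2 fold change (edgeR, vertical axes) of the members of the chromosome 13 cluster in genome order (not to distance), for 2i against primed cells and for 50 µM against 2i alone. Dotted lines part the 3 blocks; filled points were called and crosses were not tested, and in all 3 blocks most bars point down in the upper panel and up in the lower one, apart from Hist1h3d in the upper and Hist1h1d and Hist1h1a in the lower panel.

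H2A and H2B genes often stand head to head on opposite strands, and 15 pairs of histone genes, nearly all of an H2A and an H2B gene, had opposite start sites within 1000 bases. In 3 pairs both genes were tested. Hist1h2ae and Hist1h2bg, with starts 176 bases apart and the shared promoter printed above, had log2 fold changes of −1.09 and −1.43 in 2i against primed, of 1.22 and 0.88 at 25 µM against 2i and of 2.07 and 2.01 at 50 µM against 2i. Hist1h2ac and Hist1h2bc, 251 bases apart, had 1.51 and 0.66 at 50 µM against 2i, and Hist1h2ag and Hist1h2bj, 270 bases apart, had 1.23 and 0.68. In 2i against primed the second pair had −0.42 and −0.53 and the third −0.53 and −1.18, and between the doses they had 0.66 and 0.65, and 0.80 and −0.26. At 25 µM against 2i the second pair had 0.85 and 0.01 and the third 0.43 and 0.95. No difference within a pair was tested.

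Members were also described by what their annotated transcripts hold. Of the tested members with 100 or more bases past the stem-loop, 10 of 18 were lower in 2i than in primed cells and 10 were higher at 50 µM than in 2i. For shorter ends the counts were 6 and 8 of 14, and with no stem-loop letters 4 and 4 of 10. Among all genes 20.4% were lower in 2i than in primed cells and 7.01% were higher at 50 µM than in 2i. Some members share 50% or more of their 50-base stretches with other replication-dependent histone genes. Of the 15 tested members of this kind, 8 were lower in 2i and 7 higher at 50 µM, and of the 27 others 12 and 15. No difference by transcript end or by sharing was tested. Hist2h4 at 1.0%, Hist1h1c at 8.5% and Hist1h4i at 28.9% share little with such histone genes, and Hist1h2ag at 78.9% shares much. Both kinds were among those called higher at 50 µM than in 2i. Sharing with genes outside this set is not in these values.

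Other genes of the same biology were counted from lists. Variant histones are made outside S phase as well, and most carry poly(A) tails. Of 11 tested, 3 were higher and 2 lower at 50 µM than in 2i, where 7.01% of all genes were higher and 8.07% lower. H2afx, the variant phosphorylated at DNA breaks, had 410, 349 and 333 CPM at 50 µM and 228, 223 and 182 CPM in 2i (0.79 ± 0.12, edgeR adjusted p = 0.000152), and it was 0.50 ± 0.12 at 25 µM against 2i (0.0443). The call at 25 µM was lost in 5 of 6 omissions, with edgeR adjusted p between 0.0551 and 0.222, and was 0.0603 without replicate 1 of every group. H1fx, a linker variant, was higher at 50 µM than in 2i (0.70 ± 0.15, edgeR adjusted p = 0.00291), and H1f0, the linker of resting cells, was lower (−0.62 ± 0.13, 0.00225). In 2i against primed cells 2 of the 11 were higher and 2 lower, near the shares of all genes (20.0% higher and 20.4% lower).

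Of 16 tested factors of histone mRNA processing none was called by edgeR or DESeq2 at either dose against 2i. At an unadjusted p under 0.05, 3 were higher and 1 lower at 50 µM and 1 was higher at 25 µM, without the shares of all genes. With the block 3 were higher and 2 lower at 50 µM, where 12.1% and 12.4% of all genes were. Cpsf3, the nuclease that cuts histone mRNA after the stem-loop, was −0.24 ± 0.09 at 50 µM against 2i (edgeR adjusted p = 0.0718). Slbp, which binds the stem-loop, had 27.1, 24.8 and 32.9 CPM at 50 µM and 25.0, 19.1 and 20.2 CPM in 2i, and the groups overlapped (0.40 ± 0.17, edgeR adjusted p = 0.113). Lsm11, a part of the U7 snRNP, was 0.40 ± 0.15 at 50 µM against 2i (edgeR adjusted p = 0.0827). It was called lower in 2i than in primed cells (−0.40 ± 0.15, edgeR adjusted p = 0.0395), a call that was lost in 4 of 6 omissions (up to 0.361, without primed replicate 2) and by DESeq2 (0.0719). Of 18 histone chaperones 1 was higher at 50 µM than in 2i, where 7.01% of all genes were, and with the block 4 were higher and 1 lower, where 12.1% and 12.4% of all genes were. That gene was Chaf1b, a subunit of the chaperone CAF-1 that loads H3 and H4 at forks (0.39 ± 0.09, edgeR adjusted p = 0.00639). Asf1b, which hands H3 and H4 to CAF-1, was 0.23 ± 0.08 (0.076) and Ubn1, a part of the HIRA complex, 0.24 ± 0.10 (0.114), both by edgeR and not called.

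Genes of S phase include replication factors and their regulators. Of 43 tested, 13 were higher and none lower at 50 µM against 2i by edgeR, where 7.01% of all genes were higher and 8.07% lower. DESeq2 gave 12 and none, and an unadjusted p under 0.05 gave 22 and 2, without the shares of all genes. With the block 23 were higher and 2 lower, where the shares of all genes were 12.1% and 12.4%. The 13 became 7 without 50 µM replicate 1 and 8 without replicate 1 of every group. At 25 µM against 2i 4 were higher, where 0.454% of all genes were, and 11 with the block, where 2.48% were. The 4 became at most 2 in any single omission and none without 2i replicate 3. Their summed level was 6548 to 6961 CPM in 2i, 7096 to 7990 CPM at 25 µM, 7404 to 8498 CPM at 50 µM and 6259 to 6735 CPM in primed cells. In 2i against primed cells 9 of the 43 were higher and 3 lower, where 20.0% of all genes were higher and 20.4% lower. Gins2, a subunit of the replicative helicase, was 0.72 ± 0.09 at 50 µM against 2i (edgeR adjusted p = 9.1e-06). E2f8, a repressor among E2F factors, was 1.12 ± 0.15 at 50 µM against 2i (3.53e-05) and −1.30 ± 0.15 in 2i against primed (3.22e-07, both by edgeR). Uhrf1, which brings DNA methyltransferase to new DNA, was 0.61 ± 0.09 at 50 µM against 2i (edgeR adjusted p = 0.000113). Of 52 tested G2/M genes 3 were higher and 1 lower at 50 µM against 2i, where 7.01% of all genes were higher and 8.07% lower, and 10 and 2 with the block, where 12.1% and 12.4% were. Single omissions left 1 to 3 higher and 0 to 1 lower, and leaving out replicate 1 of every group 1 and 1. Psrc1 and Tmpo were higher (0.46 ± 0.10 and 0.31 ± 0.08) and Hmmr was lower (−0.40 ± 0.11), with adjusted p of 0.00229, 0.0155 and 0.0177 by edgeR. The call of Tmpo was lost in 3 of 6 omissions (up to 0.0885) and that of Hmmr in 4 (up to 0.0599). The part of these genes, or of the share of cells in each phase, in the levels of the members was not tested.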

How the data were processed

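Polyadenylated RNA of the 12 libraries was sequenced from its 3′ end with an oligo-dT primed kit, per the labels' protocols. The authors deposited whole-number counts per Ensembl gene and library, made with FastQC, STAR and DESeq2 1.32.0 on GRCm38 (mm10), per the submitters' processing notes. No source used here gives the counter, its strand setting, the annotation release or whether molecular identifiers were used. Spike-in features (114, with 2 counts in all) were left out. Counts were tested with edgeR 4.0.16 (quasi-likelihood, TMM scaling, low-count filter by filterByExpr, 1 fit over the 4 groups, R 4.3.3) and adjusted over all 13230 genes by the Benjamini-Hochberg method, at a threshold of 0.05. DESeq2 1.42.0 was an alternative, and the test was tried on simulated data. Tables were handled with Python 3.11.15 and pandas 2.3.3.

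The members and lists were chosen with earlier results of these data known. Named with values are, in each type, the 3 members with the highest mean, up to 8 called members with the smallest p in each comparison, all members of clusters 3 and 4, the genes nearest the minimum, and 3 genes of each list. Other members are named after their values were seen. Deviations of same-numbered libraries from their group means correlated at 0.155 to 0.3135 for 25 µM and 2i. The values were 0.1146 to 0.2493 for 50 µM and 2i and 0.1336 to 0.2862 for 50 and 25 µM. A replicate block, chosen from these data, was therefore fitted as an alternative. The main test had no such block, since the labels do not say that equal replicate numbers share a culture. Depth was 5894561 to 7060126 counts per library.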

Additional observations from a re-analysis of the deposited data

How the results depend on the processing

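Across DESeq2's size factors, no low-count filter, DESeq2, the replicate block and single omissions no called value of a named member changed sign. Some uncalled ones did, among them those of Hist1h1e at 25 µM against 2i, and Hist1h3d in 2i against primed cells, which was −0.23 without 2i replicate 3 and 0.36 with it. With the replicate block, 22 members were lower in 2i than in primed cells (24.0% of all genes were), 8 were higher at 25 µM (2.48%) and 27 at 50 µM (12.1%) than in 2i, and 5 were higher at 50 than at 25 µM (1.27%). For 2i against primed cells same-numbered libraries correlated at 0.0908 to 0.244 and others at −0.1682 to 0.0636. For 50 µM and 2i these ranges were 0.1146 to 0.2493 and −0.1555 to 0.0386. Such values do not establish pairs, which the labels do not state. Leaving out 1 library gave 12 to 20 members lower in 2i than in primed cells, 2 to 4 higher at 25 µM and 15 to 25 at 50 µM than in 2i, and 0 to 3 higher at 50 than at 25 µM. Between the doses the count was 5 without the low-count filter and 4 without replicate 1 of every group, an alternative chosen after seeing the data. The causes were not tested, and the shares of all genes with libraries left out or without the filter are not given. Members with few counts, such as Hist1h2ad in 2i, limit what single genes can show, and the libraries do not show the forms without a poly(A) tail.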

Other observations

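The 22 genes under the minimum held 293 counts in all, and 5 of them had none in any library. Hist1h3f, nearest to the minimum, had 3, 0 and 1 counts in 2i, 4, 5 and 7 counts at 25 µM, 3, 7 and 10 counts at 50 µM and 3, 9 and 5 counts in primed cells. Hist2h2be had 2, 2 and 1 counts in 2i and 6, 4 and 8 counts in primed cells. These were not tested.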
